A study of Mus musculus with 16 samples.

Results

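Promoter contacts that span over 1 Mb and up to 10 Mb on one chromosome were taken from a promoter-capture Hi-C table of mouse cells, on every chromosome but chromosome 4. The rule used only the distance between the midpoints of the 2 fragments, and it selected 11616 of 260860 listed interactions, which is 4.51% of the 257567 within a chromosome. They start from 3108 of 18756 captured fragments outside chromosome 4 (16.6%), called promoters here by the gene names in the table, 36 of them named only as ultraconserved elements. Another 3413 contacts of this span on chromosome 4 were left out.

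The study covers 8 groups with 2 samples each in the labels: embryonic stem cells (ESC, day 0, kept in 2i and Lif) and epiblast-like cells (EpiLC, day 2) of 4 mouse lines. DNMT_KO lacks Dnmt1, Dnmt3a and Dnmt3b, which write DNA methylation, and DNMT_WT is its parental line. TET_KO lacks Tet1, Tet2 and Tet3, which oxidise methylated cytosine, and TET_WT is its parental line. Each knock-out is 1 line, so line and genotype cannot be told apart, and contact scores check neither the deletions nor the cell identities. The table gives 1 CHiCAGO score per group, a weighted significance of a contact over the background for its distance, so no column has a replicate, an SD or a known depth. Every listed contact reached 5 in at least 1 column, 5 being the threshold for a call used below.

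Chromatin contacts beyond the scale of a single topological domain are known from a few settings. Replication-dependent histone genes gather at the histone locus body, promoters bound by Polycomb meet in shared foci, and olfactory receptor clusters form compartments of silent chromatin. Capture Hi-C pulls down promoter fragments and reads what was ligated to them, so a contact between promoters can be listed from either side.

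Upstream sequences are printed for promoters at both ends of contacts called in all 8 columns, and for Inhba. They come from RefSeq (GRCm38.p6), cover the 150 bases before the annotated start, and read 5′ to 3′ on the gene's strand. For the histone genes, capitals mark 4 short motifs on either strand, which are spelled out with their shares after the sequences. Hist1h4i (RefSeq H4c9, chr13:22041363-22041512, minus strand) and Hist1h4f (H4c6, chr13:23551669-23551818, minus strand) encode the core histone H4. Hist1h1d (H1f3, chr13:23554882-23555031, plus strand) encodes a linker histone.
Hist1h4i: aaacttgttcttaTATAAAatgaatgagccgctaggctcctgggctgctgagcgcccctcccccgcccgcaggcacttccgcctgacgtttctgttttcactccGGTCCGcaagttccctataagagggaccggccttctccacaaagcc
Hist1h4f: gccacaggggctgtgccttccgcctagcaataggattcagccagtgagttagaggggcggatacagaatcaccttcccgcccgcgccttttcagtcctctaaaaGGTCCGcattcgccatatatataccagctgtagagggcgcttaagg
Hist1h1d: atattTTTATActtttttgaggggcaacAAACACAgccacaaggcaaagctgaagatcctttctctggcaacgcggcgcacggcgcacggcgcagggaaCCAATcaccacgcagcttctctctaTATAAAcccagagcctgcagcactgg

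Both H4 windows hold GGTCCG, which 4.42% of the 32851 RefSeq promoter windows of this length hold, against 10 of 63 histone promoters (15.9%). The Hist1h1d window holds AAACACA, the box of H1 promoters (3.53% of all windows, 8 of the 63 histone promoters) and CCAAT (24.5% of all, 50 of 63). TATAAA was found in 7.57% of all windows and in 23 of the 63. These are matches of letters and no measured binding.

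For the pair Epn1 (chr7:5080085-5080234, plus strand) and Zfp787 (chr7:6155966-6156115, minus strand), and for Inhba (chr13:16011701-16011850, plus strand), capitals mark CG, the dinucleotide that the deleted enzymes act on. Epn1 codes for an endocytic adaptor, Zfp787 for a zinc-finger protein and Inhba for a subunit of activin.
Epn1: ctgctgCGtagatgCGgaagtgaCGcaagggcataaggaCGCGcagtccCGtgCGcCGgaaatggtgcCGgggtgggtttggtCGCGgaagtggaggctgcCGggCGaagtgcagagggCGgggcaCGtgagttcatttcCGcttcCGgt
Zfp787: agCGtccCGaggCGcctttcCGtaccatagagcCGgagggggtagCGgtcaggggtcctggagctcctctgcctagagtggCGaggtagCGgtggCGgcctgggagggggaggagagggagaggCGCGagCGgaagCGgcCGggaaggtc
Inhba: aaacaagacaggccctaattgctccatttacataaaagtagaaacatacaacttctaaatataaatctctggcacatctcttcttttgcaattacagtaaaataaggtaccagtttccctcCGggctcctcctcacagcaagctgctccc

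CG occurred 17 times in the Epn1 window and 14 times in the Zfp787 window, against a median of 4 and an upper quartile of 11 over all windows, and 1 time in the Inhba window. RefSeq promoters could be matched to 63.1% of the captured fragments, so a comparison of CpG or GC content over all of them is void.

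Most of these contacts were short for their class. The median distance was 1497.85 kb, with quartiles of 1165.74 and 2090.38 kb, and 8430 contacts spanned 1 to 2 Mb, 2842 spanned 2 to 5 Mb and 344 spanned 5 to 10 Mb. They were also irregular between columns: 70.6% reached 5 in only 1 of the 8 columns, against 42.3% of contacts up to 1 Mb, and 93 (0.801%) reached it in all 8, against 7.24%. At least 1 score was missing for 2657 contacts (22.9%, against 4.93% of all within a chromosome), a share that grew from 13% at 1 to 2 Mb to 45% at 2 to 5 Mb and 81.7% at 5 to 10 Mb. Of the scores given, 35.4% were exactly 0.

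In every line, EpiLC held more of these contacts than ESC. In the order DNMT_WT, DNMT_KO, TET_WT, TET_KO, used throughout for lists of 4 values, the ESC columns held 1308, 835, 1898 and 3045 calls and the EpiLC columns held 2327, 2345, 3250 and 4075. The rise was 2.81-fold for DNMT_KO, 1.78-fold for DNMT_WT, 1.71-fold for TET_WT and 1.34-fold for TET_KO. The stages overlapped across lines, since TET_KO ESC lay above both DNMT columns of EpiLC.

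The mean was 1771.5 ± 954 (SD over the 4 lines) in ESC and 2999.25 ± 837 in EpiLC, a ratio of 1.69 that did not pass the exact two-sided permutation test, which has 70 splits of the 8 columns (p = 0.114, 0.429 adjusted over 9 classes, smallest possible 0.0286). With chromosome 4 included the ratio was 1.82 and the raw p 0.0286. The ratio was 1.60 at 1 to 2 Mb, 2.19 at 2 to 5 Mb and 1.64 at 5 to 10 Mb, against 1.09 under 100 kb, 1.01 at 100 to 500 kb and 1.06 at 500 kb to 1 Mb. As a share of all calls within chromosomes, they made up 2.14% ± 1.03 in ESC and 3.50% ± 0.666 in EpiLC, higher in 4 of 4 lines (exact two-sided permutation p = 0.0857).

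**Figure D1:**
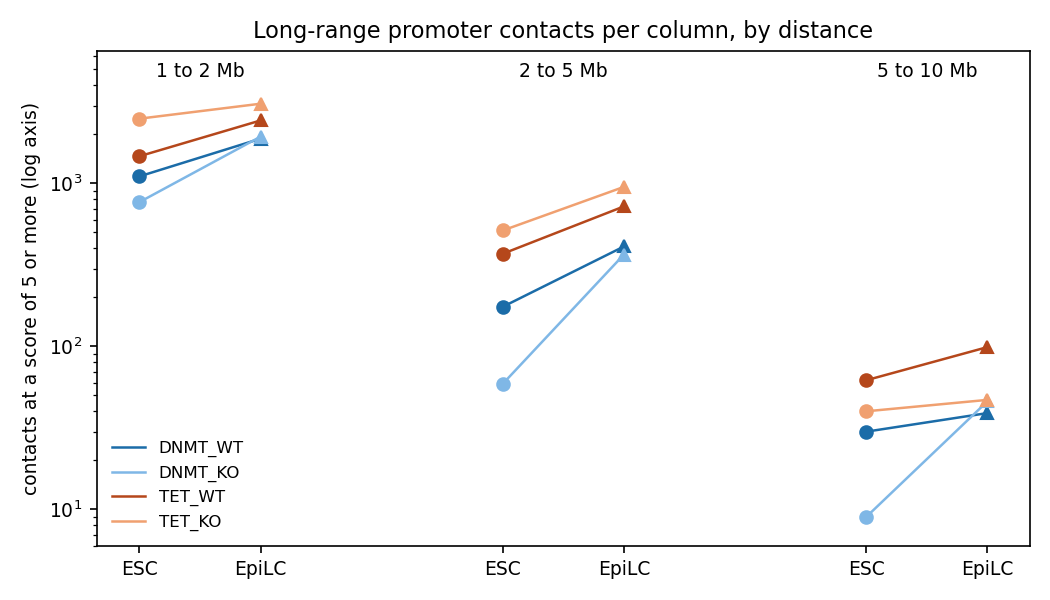
Contacts at a score of 5 or more in each of the 8 columns (log vertical axis), split by distance, with a line joining the ESC and EpiLC column of each cell line. Every line rises in all 3 distance ranges, most steeply DNMT_KO, from 59 to 366 at 2 to 5 Mb.

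By stage, 3003 contacts (25.9%) reached 5 in ESC columns alone, 6227 (53.6%) in EpiLC columns alone and 2386 in both. Contacts up to 1 Mb divided evenly, with 28.1% in ESC alone and 27.4% in EpiLC alone. All 4 EpiLC columns and no ESC column called 36 of the 11616 contacts of 1 to 10 Mb, and the reverse held for 3. The same was not counted over all contacts, so these counts have no background and are not read further.

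Contacts of this span joined promoters to promoters more often than nearer contacts did. Of the calls in a column, 12.9% to 20.6% joined 2 captured fragments, with a mean of 17.4% ± 2.97 (SD over 8 columns), against 10.1% ± 1.01 for contacts of 100 kb to 1 Mb. The difference was 7.32 ± 2.15 percentage points and was positive in 8 of 8 columns (exact two-sided sign-flip permutation test, p = 0.00781, the smallest it can give). Without the histone gene region of chromosome 13 it was 6.11 points, a setting chosen after seeing the data. The 8 columns share the listed contacts and the cell lines, so they are not independent.

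The contacts were concentrated in few places. Of the 3108 promoters, 1514 (48.7%) had 1 such contact, while the 272 with at least 10 held 45.1% of all of them. Promoters with at least 1 had a median of 9 other captured fragments within 500 kb, against 14 for promoters with none, and fragments of 5.47 kb against 5.88 kb. Of the 6809 other ends that are not promoters, 54.5% lay in a RefSeq gene, against 62.7% of the 80867 at 100 kb to 1 Mb, and 9.36% against 24.7% were shared by at least 3 promoters.

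Chromosome 7 carried 1976 of the contacts, chromosome 13 carried 1297, chromosome 6 carried 992 and chromosome 2 carried 821. On chromosome 13 they made up 12.3% of its listed interactions, the largest share of any chromosome analysed. EpiLC exceeded ESC in 4 of 4 lines on each chromosome except chromosomes 13 and X, where it did in 3 of 4.

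Cut into windows of 1 Mb, the contacts joined 1459 window pairs, of which the 10 fullest held 19.4% and the 100 fullest 57.4%. The 2 fullest pairs lay in the histone gene region of chromosome 13, joining 21 to 22 Mb with 23 to 24 Mb (474 contacts) and 22 to 23 Mb with 23 to 24 Mb (306). Next came a region of chromosome 11 that joins 73 to 74 Mb with 74 to 75 Mb (244 contacts). Its leading promoters include Tmem93, the purinergic receptor gene P2rx5 and the heat-gated channel gene Trpv1. Of the 244, 24 joined promoters, and the olfactory receptor genes Olfr411 and Olfr412 met Tmem93 and Trpv1. A fragment shared by 13 promoters lay in Rap1gap2. In this window pair all 4 EpiLC columns (93, 64, 73 and 75 calls) lay above the ESC columns (20, 19, 34 and 52). Epn1 and Zfp787 on chromosome 7 (5 to 6 Mb with 6 to 7 Mb, 160 contacts) had 38, 24, 57 and 73 calls in ESC, against 73, 77, 81 and 84 in EpiLC, with TET_KO ESC level with DNMT_WT EpiLC.

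Several of the 10 fullest window pairs had 1 line with more calls than any other line in both stages. Among them, TET_KO had 52 and 146 (ESC, then EpiLC) at SNORA70.3 and Styk1, against at most 14 and 78 in other lines. TET_WT had 45 and 99 at Foxj2 and Slc2a3, against at most 23 and 50, and 2 further pairs follow. Itgb1bp1, which encodes an integrin-binding protein, and its neighbour Iah1 on chromosome 12 (17 to 18 Mb with 21 to 22 Mb, 135 contacts) had 43 and 75 calls in TET_WT ESC and EpiLC, against 3 and 4 in TET_KO, 12 and 19 in DNMT_WT and 3 and 6 in DNMT_KO. Of these 135 contacts, 89 lacked at least 1 score, and a missing score counts as no call. Olfr66, Olfr632 and the beta-globin genes Hbb-bh1 and Hbb-bh2 on chromosome 7 (102 to 103 Mb with 103 to 104 Mb, 135 contacts) had 55 and 44 in TET_KO and 11 to 15 in each other column. Of 174 window pairs with at least 20 calls, 26 drew at least 60% of them from 1 line, which was TET_KO in 20, TET_WT in 4, and DNMT_WT and DNMT_KO in 1 each. TET_KO also had the most calls of all lines in both stages, and the part this plays in the 20 was not tested.

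**Figure D2:**
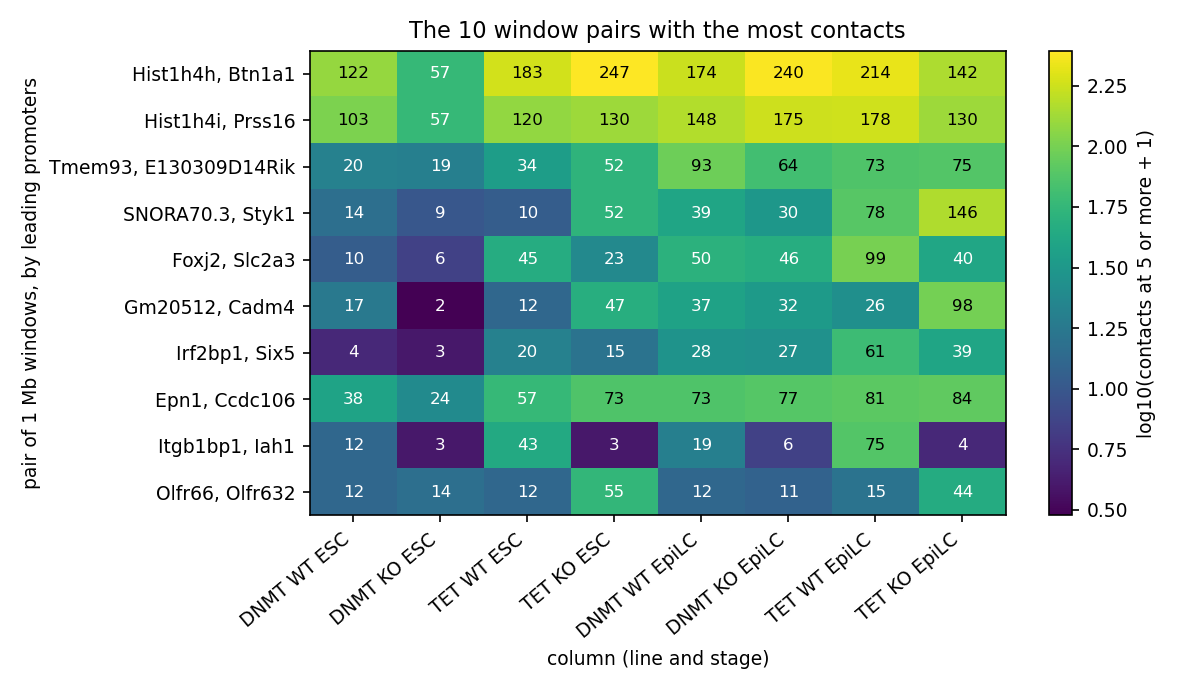
Calls (contacts at a score of 5 or more) in each column for the 10 window pairs with the most contacts, named by their leading promoters, with the number printed in each cell and the colour on a log10 scale. The histone pairs are full in every column, while Itgb1bp1 and Iah1 reach 43 and 75 only in TET_WT, and Olfr66 and Olfr632 reach 55 and 44 only in TET_KO.

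The single promoter with the most contacts was one of several fragments named SNORA70.3, a small nucleolar RNA gene (chromosome 6, 131375361 to 131380865), with 113. It had 7, 5, 14 and 23 calls in ESC, against 19, 15, 44 and 53 in EpiLC. Its neighbour Csda, a cold-shock protein gene, had 44, and 15 of the SNORA70.3 contacts and 5 of those of Csda fell in the lectin receptor gene Clec12b. Each line rose between the stages at SNORA70.3, but the stages overlapped.

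Mkrn3 followed with 72 contacts (chromosome 7, 62407692 to 62421787). Mkrn3 and Magel2, its neighbour with 40, are paternally expressed imprinted genes of the region homologous to that of Prader-Willi syndrome. All 72 lay at lower coordinates than Mkrn3, 47 of them in Snhg14 and 44 in Snrpn, the imprinted genes at the other side of the same domain, where annotations overlap. Calls at Mkrn3 numbered 8, 7, 10 and 20 in ESC, against 20, 18, 21 and 34 in EpiLC, so TET_KO ESC equalled DNMT_WT EpiLC.

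Itgb1bp1 had 65 contacts and Hmgxb4, an HMG-box protein gene on chromosome 8, had 61. Of the 10 contacts of the pluripotency factor gene Klf2, 7 ended in Hmgxb4. Gm20512, on chromosome 7, had 44.

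The histone region gave the other leading promoters: Hist1h4i (64 contacts), Hist1h4h (62), Abt1 (46), a basal transcription activator, and Btn1a1 (45), a butyrophilin. Of 34 histone promoters in the table, 25 (73.5%) had at least 1 contact of 1 to 10 Mb, against 16.6% of all promoters, and 83 of their 448 contacts joined 2 histone promoters. The region held 780 contacts, with 225, 114, 303 and 377 calls in ESC, against 322, 415, 392 and 272 in EpiLC. DNMT_KO went from the fewest calls in ESC to the most in EpiLC, and TET_KO went the other way.

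The contact between Hist1h4i and Hist1h4f, over 1509.90 kb, had the highest lowest score of all. Seen from Hist1h4i it scored 32.9, 39.8, 34.0 and 52.4 in ESC, against 38.5, 32.9, 33.3 and 33.3 in EpiLC, and no column fell below 32.9 from either side. Hist1h3e, a gene for histone H3, with Hist1h4i had its lowest score at 28 seen from Hist1h3e, and the reverse view is not among the contacts called in all 8 columns. Hist1h1d with Hist1h4i had its lowest score at 23.7 seen from Hist1h1d and at 17.2 seen from Hist1h4i. Of the 118 scores over 30, 22 equalled another within 1e-06, so the order among the highest scores is not read.

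Stage changes among the histone promoters did not pass the test: 0 of 21 tested rose or fell (limma, adjusted over all promoter values, described below), with a median difference of -0.07 and 4 at an unadjusted p under 0.05. Calls between histone promoters were 54, 20, 48 and 59 in ESC, against 49, 62, 59 and 35 in EpiLC. These overlap, and only DNMT_KO ESC stands clearly below the rest.

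Besides the histone region, which held 36 of the 93 contacts called in all 8 columns, 16 lay on chromosome 11 and 14 on chromosome 7. Bhlhe22, a neuronal transcription factor gene (chromosome 3, 18052023 to 18060357), met a fragment 1006.50 kb away with scores of 34.9, 34.2, 25.8 and 35.2 in ESC, against 27.2, 25.7, 31.7 and 22.1 in EpiLC. The B-cell repressor gene Bcl6 met one 1079.37 kb away with scores from 15.2 to 28.7. Zfp787 met Epn1 over 1076.54 kb with scores from 12.5 to 20.7. In these 3 contacts no column came near the threshold.

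The HoxD cluster behaved in another way, a feature singled out after its values were seen. Hox genes set position along the body axis and are Polycomb targets in stem cells, as are the Dlx homeobox genes. A total of 19 contacts joined the HoxD cluster on chromosome 2 (74 to 75 Mb) with fragments at 71 to 72 Mb at and beside Dlx1as, the antisense gene of Dlx1, over about 3 Mb. They start from Evx2, Hoxd13, Hoxd12, Hoxd11, Hoxd10 and 1700109F18Rik on one side, and from Dlx1as and an adjoining ultraconserved element on the other. Of the 19, 15 reached 5 in EpiLC of DNMT_WT and 10 in EpiLC of DNMT_KO, while the other 6 columns called none. All 19 were thus listed through the DNMT columns of EpiLC alone, so the lack of calls elsewhere is not independent of the listing.

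Hoxd11 with the ultraconserved element scored 11.8 in EpiLC of DNMT_WT and 13.5 in those of DNMT_KO, against 0.142 in those of TET_WT and 0 in those of TET_KO. Seen from the element, the same pair scored 4.84 in DNMT_WT EpiLC, under the threshold, and 6.23 in DNMT_KO EpiLC. Both views are among the 19. Hoxd10 with the same element scored 9.22 and 9.99 in the DNMT columns of EpiLC and 0 in each of the other 6. The highest of all the 19 outside the DNMT columns of EpiLC was 1.67, in TET_WT EpiLC. In ESC the DNMT_WT column gave a score for 8 of the 19, the DNMT_KO column for 4, TET_WT for 15 and TET_KO for 16, so the ESC side of the DNMT lines rests on few scores. Both DNMT lines are of 1 parentage, and parentage and culture cannot be told apart.

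**Figure D3:**
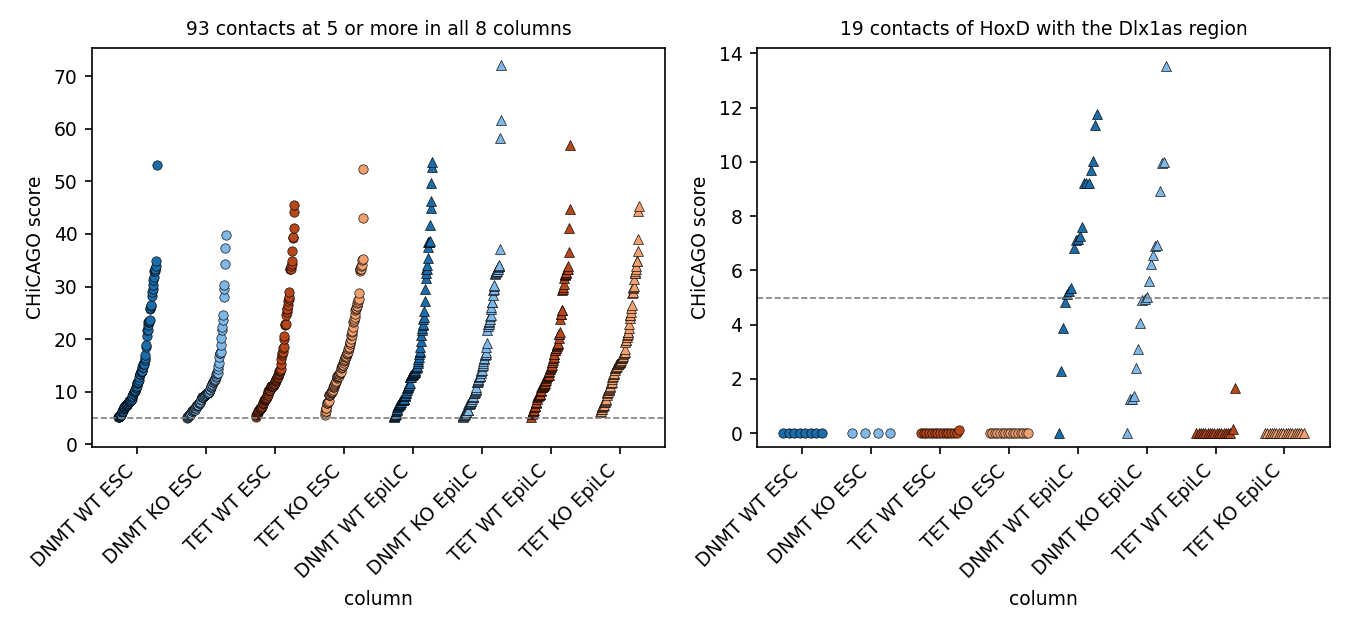
CHiCAGO scores of single contacts in each column, 1 point per contact ordered by score, with the call threshold of 5 dashed. Left, the 93 contacts at 5 or more in all 8 columns. Right, the 19 contacts of HoxD with the Dlx1as region, which reach 11.8 and 13.5 in the DNMT columns of EpiLC (DNMT_WT, then DNMT_KO) and at most 1.67 elsewhere.

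Hox, other homeobox and Polycomb-target promoters, the 3 developmental lists, were then counted together. At 2 to 10 Mb their 28 contacts, from 19 promoters, had 2, 0, 3 and 0 calls in ESC, against 12, 16, 0 and 0 in EpiLC. Of these, 8 are HoxD contacts described above, so the counts partly restate them; the other 20 contacts had 2, 0, 3 and 0 calls in ESC, against 6, 11, 0 and 0 in EpiLC. Other promoters had 437 and 396 calls in the DNMT columns of EpiLC at that distance and 821 and 998 in the TET columns, so the order of the lines was the opposite. At 1 to 2 Mb the developmental promoters had 70, 64, 63 and 115 calls in EpiLC. No test was made, since the split was chosen after the values were seen.

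Beyond HoxD, 3 pairs within these lists were joined. Zic4, a zinc-finger gene of the dorsal neural tube, met the T-box gene Tbx18 over 3627.24 kb with 11.8 in DNMT_KO EpiLC and 2.25 in DNMT_WT EpiLC. Hmx2 met Ebf3 over 5759.93 kb with 7.60 and 4.09 in the same columns, and Foxd1 met Otp over 3476.58 kb with 6.08 in DNMT_KO EpiLC and 0 in DNMT_WT EpiLC. All 3 had their highest score in DNMT_KO EpiLC, and no TET column exceeded 1.06. Each was called in DNMT_KO EpiLC alone and so was listed through that column.

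Of the developmental lists, 9 of 31 Hox promoters (29.0%), 18 of 88 other homeobox promoters (20.5%) and 21 of 101 other Polycomb-target promoters (20.8%) had a contact of 1 to 10 Mb. Over all promoters the share was 16.6%. Dlx5, a homeobox gene of limb and jaw, had 18 contacts, 14 of them in Dync1i1, a dynein gene known to hold Dlx5 enhancers. Their calls were 7, 6, 7 and 12 in ESC, against 7, 2, 11 and 12 in EpiLC, and the promoter value differed by -0.06 ± 0.12 (limma, adjusted p = 0.79). All 29 contacts of Tcfap2b, which encodes a transcription factor of neural crest and kidney, fell in Pkhd1, with 21 and 28 calls in TET_KO and 4 to 8 in every other column.

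To test the stages promoter by promoter, the asinh scores were quantile normalised between columns and averaged over the contacts of a promoter, and limma fitted the stage with the line as a block. Of 849 promoters with at least 3 contacts of 1 to 10 Mb and all scores, 70 rose in EpiLC and 11 fell. That is 8.24% rising, against 3.89% of all promoter values of any distance, and 1.3% falling, against 4.99%; in either direction the background was 8.88%. The median difference was 0.29 against -0.01 over all values, and 73.5% were higher in EpiLC against 48.3%. The EpiLC columns lay wholly above the ESC columns at 70 promoters (8.24%, against 6.09% over all values) and wholly below at 6 (0.707%, against 7.42%; 13.5% in either direction). A contact is listed only where a column reached 5, so these values describe contacts selected for a high score.

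Inhba was among the promoters that rose. Its 28 contacts (chromosome 13, bait at 16011411 to 16017560) ended at 17019643 to 17657078, all 28 in the gene Sugct, at 1005.33 to 1641.90 kb. Its promoter value was 1.10, 0.95, 0.92 and 1.23 in ESC, against 2.19, 2.29, 1.95 and 2.38 in EpiLC. The stages did not overlap, the difference was 1.15 ± 0.17 (limma, adjusted p = 0.00377), and it passed with any 1 line left out. Calls went from 2, 0, 0 and 6 to 14, 18, 15 and 19, and its contacts up to 1 Mb rose too, by 0.60 (adjusted p = 0.0121).

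Utf1, a transcription factor of pluripotent cells, had values of 0.00, 0.00, 0.68 and 0.07 in ESC, against 2.49, 1.55, 1.26 and 0.83 in EpiLC. It rose by 1.34 ± 0.33 (limma, adjusted p = 0.0237) over 4 of its 7 contacts, and passed with 2 of the 4 lines left out in turn. It is 1 of 6 promoters with such a contact among 26 of the list of formative and primed epiblast genes, which had 0, 0, 1 and 0 calls in ESC, against 5, 6, 5 and 1 in EpiLC. Of these calls, Utf1 alone held 0, 0, 1 and 0 in ESC and 4, 2, 3 and 0 in EpiLC, so the list counts partly restate it. Naive pluripotency promoters had a contact in 11 of 26 cases (42.3%, against 16.6% of all promoters). Their calls were 3, 1, 15 and 4 in ESC, against 5, 6, 13 and 11 in EpiLC, so this list was also higher in EpiLC, in 3 of 4 lines. Nanog, with 13 contacts, had its calls in TET_WT (7 in ESC, 5 in EpiLC) and DNMT EpiLC (1 and 2), and its value differed by 0.41 ± 0.27 (limma, adjusted p = 0.32).

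Other large rises by the naming rule were at Qdpr, an enzyme of tetrahydrobiopterin recycling (1.49 ± 0.26), Mex3c, an RNA-binding ubiquitin ligase (1.35 ± 0.26), and Pcdh17, a protocadherin (1.33 ± 0.28). Magi2, a synaptic scaffold gene, rose by 1.21 ± 0.25 over 16 contacts, all with fragments inside Magi2 itself. Irf2bp1, a corepressor gene (1.17 ± 0.27), AC113316.1 (1.15 ± 0.22), the vomeronasal receptor gene Vmn1r195 (1.15 ± 0.20) and the kinase gene Plk2 (1.14 ± 0.22) complete the 10. All had adjusted p between 0.00377 and 0.0237 in limma, and in all of them every EpiLC column lay above every ESC column. Qdpr and AC113316.1 rest on 3 contacts each, Mex3c and Vmn1r195 on 4 and Pcdh17 on 5. No ESC column called any contact of Qdpr, Mex3c, Pcdh17, Magi2 or AC113316.1. Their contacts were listed through EpiLC columns alone, so part of their rise was set by the listing. With each line left out in turn, Qdpr and Vmn1r195 passed 4 of 4 times, Mex3c, Pcdh17, Magi2, AC113316.1 and Plk2 passed 3 times, and Irf2bp1 passed 1 time. Values of Plk2 were 1.81, 0.92, 0.75 and 0.79 in ESC, against 1.97, 2.26, 2.03 and 2.57 in EpiLC, so DNMT_WT ESC lay close to the EpiLC columns.

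Within HoxA 3 promoters rose. Hoxa3 rose by 0.92 ± 0.21 over 10 contacts, Hoxa10 by 0.76 ± 0.20 over 5, and Hoxa11as by 0.95 ± 0.16 over 7 (limma, adjusted p = 0.0174, 0.0269 and 0.00728). Their other ends all lay at 51167210 to 51213428 on chromosome 6, about 1 Mb from the cluster. Hoxa3 had 1.98, 0.70, 1.89 and 1.77 in ESC, against 2.22, 2.92, 2.49 and 2.38 in EpiLC, so DNMT_KO ESC stood lowest. It also stood lowest at Hoxa10 (0.36) and Hoxa11as (0.83), and the line differences were largest in DNMT_KO at all 3 (2.21, 1.65 and 1.91), against 0.22 to 0.73 in the other lines. Hoxa6, beside Hoxa3, did not pass (0.55 ± 0.24, limma adjusted p = 0.15), with 2.38, 0.62, 2.36 and 2.56 in ESC, against 2.89, 2.70, 1.98 and 2.56 in EpiLC. Near contacts of Hoxa11as fell (-0.47, adjusted p = 0.0327) while those beyond 1 Mb rose. Of 5 Hox promoters tested, 2 rose and 0 fell, and Hoxa11as is outside that list. Of 5 other homeobox and 10 other Polycomb-target promoters tested, 0 passed in limma, with 1 and 3 at an unadjusted p under 0.05 and medians of 0.16 and 0.30.

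The counts of these lists stand beside 8.24% rising and 1.3% falling of the 849 tested. Zinc-finger Zfp promoters had 16 tested values, of which 3 rose, Zfp322a by 1.08 ± 0.21 with contacts back into the histone region. Olfactory receptor promoters had 61, of which 0 rose and 5 fell, with a median of -0.08. In Olfr103, on chromosome 17, values went from 1.09, 1.46, 2.28 and 1.58 to 0.30, 0.41, 0.82 and 0.85, a fall of 1.01 on the asinh scale (SE 0.26, adjusted p = 0.0264 in limma). The remaining falls with separate stages were at Arhgap36 on chromosome X (-1.13 ± 0.25), Scarna3b (-0.77 ± 0.21), the glycine receptor gene Glrb (-0.57 ± 0.13) and Atp13a4 (-0.41 ± 0.12). With each of the 4 lines left out in turn, Arhgap36 passed 3 times, Olfr103 2 times, Scarna3b and Glrb 1 time each and Atp13a4 0 times. Atp13a4 also missed the threshold with no scaling between columns (limma, adjusted p = 0.0995), and its adjusted p ranged from 0.0496 to 0.709 over the alternatives.

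Contacts up to 1 Mb were set beside the far ones. Of the 81 promoters past the threshold, 57 also had a tested value for contacts up to 1 Mb, and 6 of these were called in the same direction there, 2 in the opposite direction and 49 not at all. The 8 called near make up 14.0%, against 8.79% of all 15228 values up to 1 Mb. Near and far differences were not tested against each other. Leaving out 1 line left 13 (without DNMT_KO) to 50 (without TET_KO) promoters past the threshold in place of 81, with 49 without DNMT_WT and 35 without TET_WT.

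**Figure D4:**
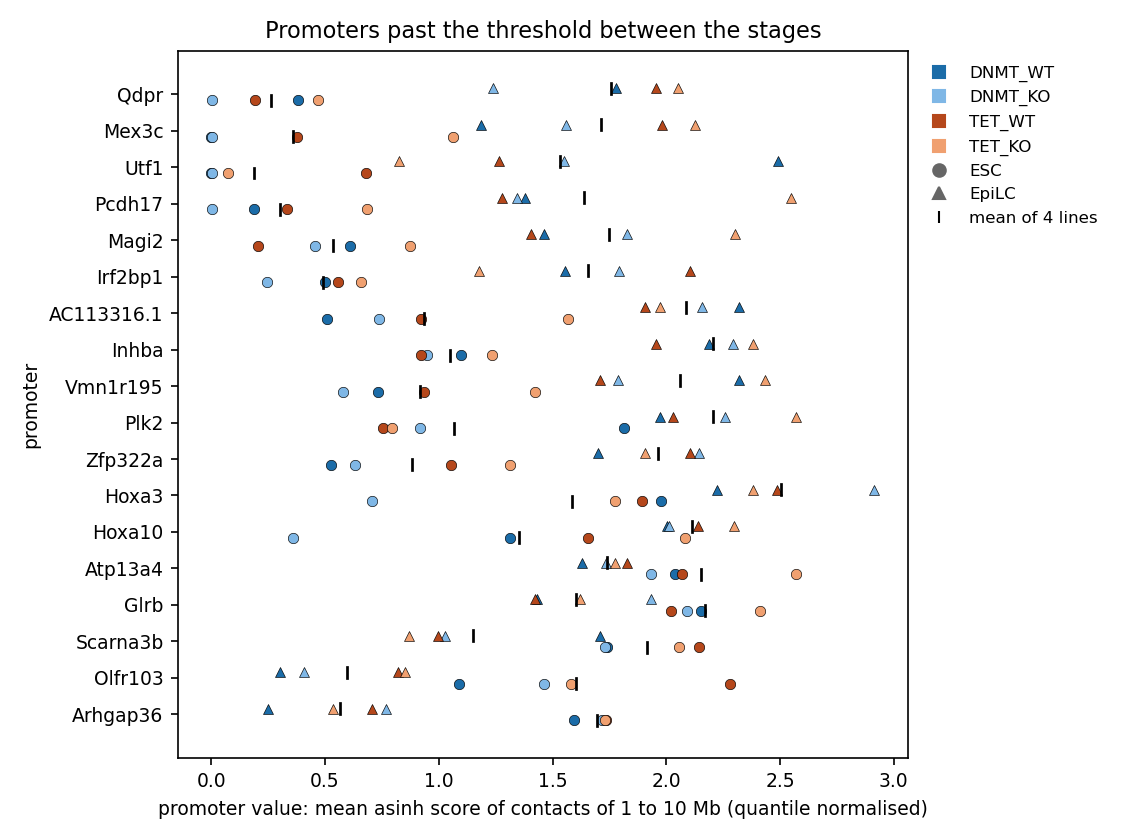
Promoter values (mean asinh score of contacts of 1 to 10 Mb, quantile normalised) in each column for the named promoters past the threshold and the list members Zfp322a, Hoxa3 and Hoxa10, with colour for the line, circles for ESC, triangles for EpiLC and bars for the mean of 4 lines. Inhba moves from 0.92 to 1.23 up to 1.95 to 2.38, and Arhgap36, Olfr103, Scarna3b, Glrb and Atp13a4 move down.

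Among single contacts, 62 of 8959 tested rose and 4 fell (0.692% and 0.0446%), against 0.207% and 0.108% of all contacts within chromosomes (0.315% in either direction; limma, adjusted over 244865). An unadjusted p under 0.05 was found for 1607. Every EpiLC column lay above every ESC column for 357 contacts (3.98%, against 3.95% of all) and below for 70 (0.781%, against 4.78%; 8.73% in either direction over all). No contact passed when any 1 line was left out or in the wild-type lines alone, with 1509 to 1731 at an unadjusted p under 0.05 in those fits.

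The largest rise was between Qpctl, an enzyme gene on chromosome 7, and a fragment in Dact3, a Wnt pathway regulator, over 2250.7 kb. It scored 0 in every ESC column and 11.4, 2.20, 9.26 and 6.99 in EpiLC. Mex3c met Mbd2, which encodes a protein that binds methylated DNA, over 3003.3 kb. This contact went from 0, 0, 0.585 and 3.13 in ESC to 11.3, 4.999, 8.63 and 17.3 in EpiLC (2.32 ± 0.31, adjusted p = 0.00809 in limma), with DNMT_KO EpiLC just under the call threshold. Both contacts had separate stages and were listed through EpiLC columns alone, so part of their rise was set by the listing.

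Inhba met a fragment in Sugct (17580098 to 17580542) with 1.04, 0, 0 and 1.07 in ESC, against 3.92, 15.8, 4.10 and 13.2 in EpiLC. Gm17394, next to Inhba, met another with a rise of 2.19 ± 0.34. Further rises by the rule were at SNORA70.3, Clstn3, Fiz1, Tmem93, Gm15356 and Hist1h4f, of 2.09 to 2.37 on the asinh scale. Falls were between Gm17658 and Gm11274 in the histone region (3.57, 7.28, 10.9 and 19.5 in ESC, 2.05, 1.58, 0.00249 and 0 in EpiLC), at Gm14697 on chromosome X and at Olfr102.

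Of 249 window pairs tested as wholes, 18 rose and 0 fell, where 5.47% of all window pairs rose and 11.5% fell (17.0% in either direction); 63 had an unadjusted p under 0.05. The share rising was 7.23%, and the stages were separate upward in 17 pairs (6.83%, against 6.11% of all) and downward in 0 (against 11.3%; 17.4% in either direction). Pcdh17 led with the pair of chromosome 14 at 84 to 85 and 86 to 87 Mb (1.33 ± 0.23), followed by the cell adhesion gene Ncam2 on chromosome 16 (1.23 ± 0.30) and Arpp21 with Mir128-2 on chromosome 9 (1.05 ± 0.26). The Pcdh17 pair rests on 5 contacts with the same values as the promoter value of Pcdh17 above, so it restates that result. The pair that joins 15 to 16 with 17 to 18 Mb of chromosome 13, beside Inhba, rose by 0.85 ± 0.14, and it and the Pcdh17 pair passed with any 1 line left out. The count was 2 to 7 with 1 line left out (7 without TET_WT, 4 without DNMT_WT, 3 without TET_KO, 2 without DNMT_KO).

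The knock-outs were set beside their parental lines column by column, with no test, since a group has 1 column. In DNMT_KO ESC 425 contacts were gained against DNMT_WT (5 or more in 1 column, under 3 in the other) and 782 lost, of 9786 with both scores. These shares were 4.34% and 7.99%, against 5.74% and 7.22% over all distances. In EpiLC 1162 were gained and 1140 lost (10.7% and 10.5%, against 4.86% and 4.73%). The calls in DNMT_KO were 0.638 times those of DNMT_WT in ESC and 1.01 times in EpiLC.

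TET_KO gained 1853 contacts and lost 899 against TET_WT in ESC (17.3% and 8.41%, against 7.13% and 5.2% over all distances), and gained 2393 and lost 1617 in EpiLC (21.7% and 14.6%, against 7.31% and 5.9%). Its calls were 1.60 times those of TET_WT in ESC and 1.25 times in EpiLC. The parental lines differed by a similar amount: TET_WT held 1.45 times the calls of DNMT_WT in ESC and 1.40 times in EpiLC. TET_WT gained 11.4% and lost 6.61% in ESC (against 6.86% and 7.2%) and gained 17.0% and lost 10.3% in EpiLC (against 6.76% and 4.66%). A difference between a knock-out and its parent was thus not separated from a difference between lines.

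**Figure D5:**
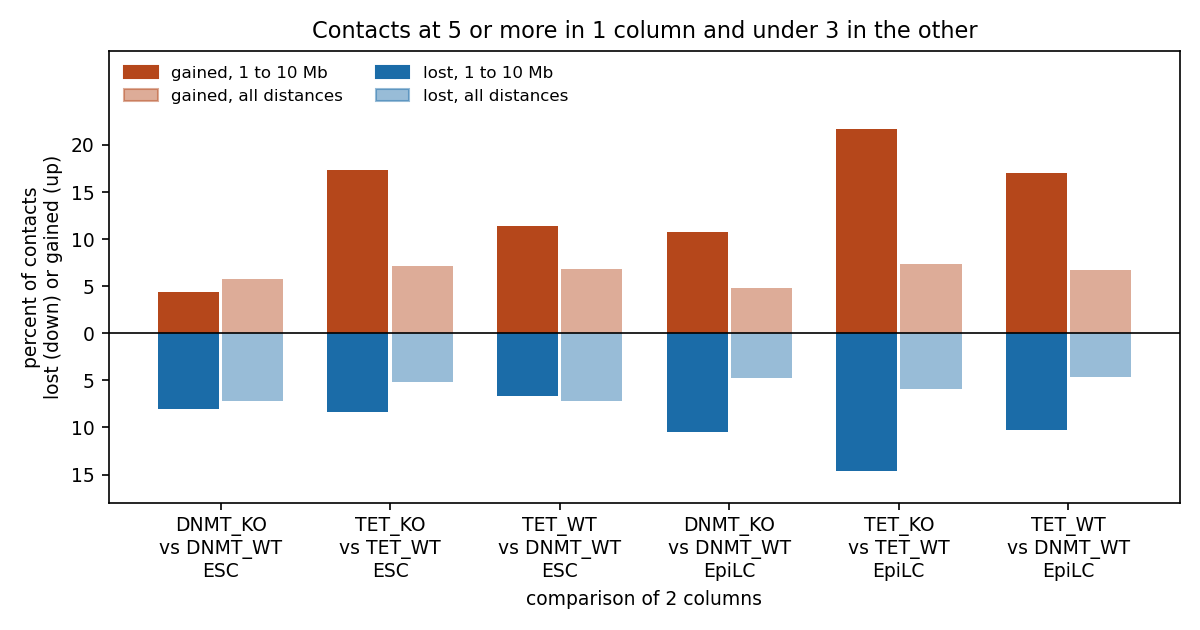
Percent of contacts at 5 or more in the first column and under 3 in the second (gained, up) or the reverse (lost, down), for contacts of 1 to 10 Mb (full colour) and all within chromosomes (pale). TET_KO gains 17.3% in ESC and 21.7% in EpiLC, and the parental lines differ by 11.4% and 17.0%.

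Among 504 promoters with at least 5 such contacts and all scores, 254 were higher in TET_KO than in TET_WT in both stages and 79 lower in both, with median differences of 0.38 in ESC and 0.19 in EpiLC. Between the parental lines 199 were higher in TET_WT in both stages and 90 lower. For DNMT_KO 75 were higher and 156 lower in both.

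Mir146, the gene of a microRNA of innate immunity on chromosome 11, had 18 contacts 2485.76 to 2672.06 kb away, and calls in TET_KO alone, 7 in ESC and 12 in EpiLC. Dio2, which activates thyroid hormone, met the neurexin gene Nrxn3 with 6 of 6 contacts. They were called 2 and 5 times in TET_KO and in no other column. The contacts of Mir146 and Dio2 were thus listed through TET_KO columns alone, so part of their difference was set by the listing. The other large positive differences of TET_KO in promoter value were at 1810030J14Rik (mean difference 2.28), Olfr631 (1.83) and Cntnap5c (1.60).

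Lower in TET_KO were Sall1 (-1.79), a zinc-finger regulator of kidney development, Iah1 (-1.39), U2.12 (-1.34), Znrd1 (-1.26) and Itgb1bp1 (-1.25). The values of Iah1 and Itgb1bp1 rest on 11 of 42 and 27 of 65 listed contacts, those with all scores. Sall1 had values of 2.43 and 1.63 in TET_WT ESC and EpiLC, against 0.10 and 0.38 in TET_KO. Its values in the DNMT lines were at most 0.98, so TET_WT was the column that stood apart. Its contacts were called in TET_WT alone, 4 in ESC and 1 in EpiLC. They were thus listed through that line, so part of this difference was set by the listing. In DNMT_KO the largest positive differences in value were at U2.12 (1.24), the kidney transporter gene Slc12a1 (1.2), Sall1 (0.71), Gm10247 (0.65) and the serotonin receptor gene Htr1b (0.64). The most negative were at Hoxa6 (-0.98), Trim68 (-0.87), Hnrnpul1 (-0.84), Prdm8 (-0.82) and Pnmal2 (-0.76). At U2.12 the difference was 0.11 in ESC and 2.36 in EpiLC. Sall1 had 0 calls in every DNMT column. Slc12a1 and Htr1b had 1 call each there, in DNMT_KO EpiLC, so their values lie mostly under the call threshold. Hoxa6 had 2.38 in DNMT_WT and 0.62 in DNMT_KO in ESC, and 2.89 and 2.70 in EpiLC, so most of its difference lay in ESC.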

How the data were processed

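Promoter-capture Hi-C used HindIII-digested, formaldehyde-fixed chromatin and RNA baits against promoter fragments, per the labels' protocols. Read trimming used Trim Galore 0.6.5 with cutadapt 2.3, and coordinates follow GRCm38, all per the submitters' processing notes. Not given in the sources used here were which aligner and CHiCAGO version were used and how the 2 samples of a group were joined. CHiCAGO scores were made and deposited by the authors as 1 column per group, with no stated scaling between columns and with unknown depth. From the values, some scores are missing, and every interaction reaches 5 in at least 1 column.

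Contacts over 1 Mb and up to 10 Mb outside chromosome 4 were analysed; their members, the gene lists and the tests were chosen with earlier results of these data known. Counts at 5 or more were compared between the stages by exact permutation over the 8 columns; with 4 lines, pairing by line cannot go below p = 0.125. limma 3.58.1 in R 4.3.3 (lmFit, eBayes with a trend, line as a block) was fitted to asinh scores after quantile normalisation, on all contacts within chromosomes that have 8 scores, on promoter means (at least 3 contacts, each distance class apart) and on pairs of 1 Mb windows, with Benjamini-Hochberg adjustment at 0.05 over the whole table each time. Differences are EpiLC minus ESC on the asinh scale, given with their standard error. The p-values measure only the spread between 4 lines, which are not independent, since each knock-out derives from a wild type. Tested on simulated data, the fit estimated shifts close to those put in and called most of them in promoter values, but fewer than 1 in 2 in single contacts, so a contact that did not pass may still differ. The simulated noise was normal and the shifts were put into units of all distances. Recovery among contacts of 1 to 10 Mb, which hold many scores of 0, was not measured. Knock-out columns were compared with no test.

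Named were the 10 promoters and window pairs with the most contacts, up to 10 contacts, promoters and window pairs each way by size among those past the threshold with separate stages (at most 2 contacts a promoter), the contacts with the highest lowest score, 5 promoters each way per knock-out (at least 5 contacts, the same sign in both stages), and up to 4 members a list with those past the threshold; a few others were chosen after their values were seen, among them the neighbours and fragments that named promoters meet. The lists were Hox, other homeobox, other Polycomb-target, naive, formative, neuroectoderm, hematopoietic, germline, histone, olfactory receptor, protocadherin, Zfp and ribosomal protein genes. Gene models and promoter sequences are RefSeq's, GRCm38.p6; fragment sequences were not used here. Alternatives covered the threshold, scaling, transform, block, filters, missing scores, chromosomes and lines. Results for some items are not reported here.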

Additional observations from a re-analysis of the deposited data

Results flagged for a closer look

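Among 58 groups of 4 columns of 1 stage, 10 held a column set apart from the other 3 by a gap that, over the group's range, exceeded Dixon's critical value for 4 values, which chance does in about 1 in 20 groups. TET_KO was that column 5 times. It held 52 calls in ESC between 129 to 130 and 131 to 132 Mb of chromosome 6 (SNORA70.3, Styk1), against 9 to 14 in the other lines. It held 98 in EpiLC between 19 to 20 and 24 to 25 Mb of chromosome 7 (Gm20512, Cadm4), against 26 to 37. Between the Olfr and Hbb windows of chromosome 7 it held 55 in ESC and 44 in EpiLC, and its Pcdh17 promoter value in EpiLC was 2.55 against 1.28 to 1.38.

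TET_WT stood apart 3 times. It held 99 contacts of 5 to 10 Mb in EpiLC, against 39 to 47. It also held 99 calls in EpiLC between 122 to 123 and 124 to 125 Mb of chromosome 6 (Foxj2, Slc2a3), against 40 to 50. Its Utf1 value in ESC was 0.68, with the other lines at 0.07 or less. The DNMT_WT column of ESC stood apart at Plk2, with 1.81 against 0.75 to 0.92, and at Arhgap36, with 1.59 against 1.72 to 1.73.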

How the results depend on the processing

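The EpiLC over ESC ratio of calls stayed between 1.5 and 1.96 under the alternatives run, and where it could be tested its adjusted p was at least 0.129. The ratio of shares stayed between 1.47 and 1.90 and passed the exact permutation test only with chromosome 4 included (1.74, p = 0.0286). The promoter-to-promoter difference ranged from 3.92 to 10.8 points. Against 66 contacts, 81 promoters and 18 window pairs past the threshold in limma, leaving out 1 line gave 0 contacts, 13 to 50 promoters and 2 to 7 window pairs. The wild-type lines alone gave 0, 17 and 0 (unadjusted p under 0.05 for 1626 contacts and 33 window pairs), and no block for the line 24, 27 and 3. Contacts at 5 or more in at least 2 columns gave 0, 51 and 11 (unadjusted p under 0.05 for 753 contacts). Missing scores set to 0 gave 31, 32 and 8; this setting and those without chromosome 13, chromosome 7 or the histone region were chosen after seeing the data. With log2(score + 1), 115 contacts passed. A minimum of 1 listed contact gave 7 promoters and 6 window pairs, and a minimum of 10 gave 32 window pairs. With the number of calls as the value, 0 promoters (171 at an unadjusted p under 0.05) and 4 window pairs passed. No named contact, promoter or window pair changed direction in the alternatives that gave it a value. Some of these fits hold fewer columns or other numbers of units; other causes were not tested. No paired analysis was possible because the columns carry no replicate number; the block by line in limma pairs the stages within a line, and its effect is given above. The depth of the columns is unknown, so counts have no interval.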

Other observations

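The remaining gene lists differed in how many members had a contact of 1 to 10 Mb. Of 19 neuroectoderm promoters 5 had one, with 0, 0, 1 and 5 calls in ESC (DNMT_WT, DNMT_KO, TET_WT, TET_KO), against 8, 10, 5 and 9 in EpiLC. Of 3 tested, 0 passed in limma and 2 had an unadjusted p under 0.05. Among them Zic1, a zinc-finger gene of the neural tube, differed by 1.26 ± 0.39 (limma, adjusted p = 0.0522), with 4 and 3 calls in the DNMT columns of EpiLC, 1 call in TET_WT ESC and 0 in the other 5 columns. Contacts were listed for 2 of 31 hematopoietic promoters, 5 of 31 germline promoters and 0 of 22 clustered protocadherin promoters. For 1 tested promoter in each of the first 2 of these lists, no call was made and no unadjusted p was under 0.05. Ribosomal protein promoters, pseudogenes included, had a contact in 18 of 87 cases, and of 7 tested 0 passed, with 1 at an unadjusted p under 0.05. Olfactory receptor promoters had one in 204 of 783 cases and Zfp promoters in 61 of 263, where 16.6% of all promoters did.

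Igfbp1 and Igfbp3, which encode binding proteins of insulin-like growth factors, lead a window pair of chromosome 11 (7 to 8 with 8 to 9 Mb), chosen after its values were seen. Its 99 contacts had 42, 41, 48 and 63 calls in ESC, against 58, 37, 39 and 60 in EpiLC. The stages overlapped there, and EpiLC had fewer calls in 3 of 4 lines.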
